A study of Rattus norvegicus with 14 samples.

Results

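Akr1c13, AKR1C3l1 and Akr7a3 are 3 aldo-keto reductase genes of rat liver. They were taken as the probe sets whose platform gene symbol is one of these names, which gave 3 probe sets, 1 for each gene, of 4502 on the array. The array named 7 other aldo-keto reductases, through 11 further probe sets. The genes had been picked because earlier work on these same arrays showed them to differ with strain or feeding, so their levels and differences are given here as a description and without a test.

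Liver RNA was hybridised to 1-colour Affymetrix arrays, on which several short probes, together a probe set, read each transcript. The rats behind the 14 arrays were of the Wistar strain or of a strain called Kyoto in the labels, and they ate standard chow or chow with 1% orotic acid, a pyrimidine precursor that gives rats a reversible fatty liver. There were 3 Wistar controls on plain chow, 2 Wistar rats fed orotic acid for 3 days and 3 fed for 14 days. There were 2 Kyoto rats each at 1, 3 and 14 days of feeding, and the left lateral lobe was taken in every case. Age and sex are not given in the labels. Kyoto rats without orotic acid were not analysed here, so a level in Kyoto livers always belongs to both the strain and the diet. The labels do not say in so many words that each array is a separate rat, so p-values measure only the spread between these arrays, which may be technical. Each group holds only 2 or 3 arrays, and that number limits the precision of every value.

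Aldo-keto reductases are NADPH-dependent enzymes that turn aldehydes and ketones into alcohols. The C subfamily, to which Akr1c13 and AKR1C3l1 belong, includes the hydroxysteroid dehydrogenases, which act on steroid hormones, bile acid precursors, prostaglandins and foreign carbonyl compounds in liver. Akr7a3 is the rat aflatoxin aldehyde reductase, which protects liver by reducing a reactive aflatoxin dialdehyde and is known to be induced by dietary antioxidants.

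In the RefSeq gene table for assembly GRCr8, Akr1c13 (gene ID 361266) and AKR1C3l1 (gene ID 498789) lie on chromosome 17 in a run of C subfamily genes, with 1 protein-coding gene, Akr1c12l1, between them. Of 11 Akr1 genes on that chromosome the array named 4. Akr7a3 (gene ID 26760) lies on chromosome 5 next to Akr7a2. RefSeq lists Akr1c12 as an older name of Akr1c13. The probe set of Akr1c13 ends in _at, which in the maker's naming marks probes for 1 transcript. Those of AKR1C3l1 and Akr7a3 end in _s_at, which marks probes shared by several related transcripts. Cross-binding of the AKR1C3l1 probes to RNA of the neighbouring genes, and unequal binding to the RNA of the strains, were not tested.

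The 250 bases before a RefSeq start of each gene (build GRCr8) are shown because these 3 relatives, of which a pair are near neighbours, had different patterns over the same arrays. Capitals mark matches to 4 motifs searched on both strands. The motifs were the antioxidant response element core TGACNNNGC, the STAT site TTCNNNGAA, the HNF1 half-site GTTAAT and the TATA box TATAAA.
Akr1c13, chr17:70894386-70894635, forward strand: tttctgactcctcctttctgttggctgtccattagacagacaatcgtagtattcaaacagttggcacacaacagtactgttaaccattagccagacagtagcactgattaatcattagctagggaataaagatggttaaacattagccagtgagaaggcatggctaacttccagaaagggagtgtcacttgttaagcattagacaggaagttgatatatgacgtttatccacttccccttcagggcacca
AKR1C3l1, chr17:70757251-70757500, forward strand: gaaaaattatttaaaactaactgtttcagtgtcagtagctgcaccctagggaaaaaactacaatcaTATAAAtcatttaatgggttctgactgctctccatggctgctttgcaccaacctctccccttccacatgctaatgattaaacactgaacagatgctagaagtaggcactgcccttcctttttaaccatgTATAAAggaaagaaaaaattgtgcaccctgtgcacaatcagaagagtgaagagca
Akr7a3, chr5:156876471-156876720, forward strand: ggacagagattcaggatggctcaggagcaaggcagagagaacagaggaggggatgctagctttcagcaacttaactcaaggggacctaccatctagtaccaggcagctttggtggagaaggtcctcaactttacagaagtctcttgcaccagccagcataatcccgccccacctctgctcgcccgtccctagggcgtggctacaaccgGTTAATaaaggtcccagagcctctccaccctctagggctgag
The AKR1C3l1 window held TATAAA at 55 to 50 bases and again at 184 to 179 bases before the start, a motif found in 12.9% of 33469 such RefSeq windows. The Akr7a3 window held GTTAAT at 42 to 37 bases before the start (6.45% of windows). The Akr1c13 window held none of the 4, and TGACNNNGC (10.1% of windows) and TTCNNNGAA (7.67% of windows) were in none of the 3 windows. No marked matches overlapped. The AKR1C3l1 window lies inside the gene's RefSeq span, before the start of one of its transcripts. A match is a string of letters and not a shown binding site.

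Signals below are the deposited values after quantile scaling between arrays. A signal under 115 was set to 115 in the linear model (limma). A difference that rests on such an array is a bound, and is written as at least or called a bound. The array labelled Wistar control 2 stood apart from its label, its nearest array being Kyoto day 3 replicate 2 (r = 0.961 across 1906 features, the members left out). The array least like the rest was Kyoto day 1 replicate 1 (median r = 0.895). Of 8 hepatocyte markers 7 were on the array and none was at the floor on every array, and their summed signal ran from 117360 to 136180. In bulk liver, fewer cells of a type and less RNA per cell cannot be told apart. A lot batch is labelled on 11 arrays, always as 1, and is missing for Wistar control 3, Wistar day 3 replicate 2 and Wistar day 14 replicate 3.

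Akr1c13 was the member that followed strain. Its signal was 965 and 1778 in the Kyoto livers at day 1, 1906 and 2499 at day 3, and 2470 and 3207 at day 14. In fed Wistar livers it was 407 and 501 at day 3, and 340, 451 and 357 at day 14. The Wistar controls had 501, 1874 and 552. All 6 Kyoto arrays were higher than all 5 fed Wistar arrays and than Wistar controls 1 and 3. What share of all features shows such a gap is not given here. The array labelled Wistar control 2, at 1874, lay within the Kyoto range of 965 to 3207 and more than 3-fold above the other controls.

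The Akr1c13 difference between fed Kyoto and fed Wistar rats, over the means of days 3 and 14, was 2.58 ± 0.34 log2 (SE, 4 against 5 arrays), a 5.98-fold higher signal. By day it was 2.27 ± 0.51 at day 3 (4.83-fold) and 2.89 ± 0.46 at day 14 (7.41-fold). With lot batch 1 arrays alone it was 2.63, and with a lot batch term 2.47. As background, 62 of 1909 features (3.25%) passed an adjusted p of 0.05 in this comparison in the limma fit.

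Among the marker sums of other cell types, the endothelial one did not overlap between the fed strains and the rest did. The summed signal of 2 of 5 endothelial markers, Pecam1 and Kdr, was 322 to 474 in fed Kyoto livers of days 3 and 14 and 196 to 269 in fed Wistar livers. That of 3 Kupffer cell and macrophage markers, Clec4f, Cd14 and Lyz2, was 2818 to 4448 against 2146 to 3335. The cholangiocyte list had 2 of 6 genes on the array, of which Epcam was at the floor throughout, and summed to 118 to 181 against 115 to 165. Stellate cell markers (5 of 7 on the array) summed to 5929 to 8593 against 5690 to 9604. The 1 lymphocyte marker on the array, Cd4, was 33.9 to 190 against 96.2 to 143, and 2 red cell genes summed to 6746 to 12454 against 6637 to 9571. Their part in the Akr1c13 difference was not tested.

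Within the Kyoto rats the mean Akr1c13 signal was higher at each later day. The mean log2 signal was 10.36 ± 0.62 (SD, n = 2) on day 1, then 11.09 ± 0.28 (SD, n = 2) on day 3 and 11.46 ± 0.27 (SD, n = 2) on day 14. The difference was 1.10 ± 0.51 log2 from day 1 to day 14, and the arrays of those days did not overlap. A gap between 2 and 2 arrays can easily arise without a difference between days. Its share among all features is not given here. Kyoto day 1 replicate 1 carried much of it: without that array the difference was 0.66, and without Kyoto day 1 replicate 2 it was 1.54. Replicate 1 of day 1 was also the array least like the rest, and it held blank cells in 374 rows. The part of these in the difference was not tested. Days 3 and 14 overlapped (0.37 ± 0.51).

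Against Wistar controls, Akr1c13 was lower by -1.08 ± 0.41 log2 at day 14 and by -0.83 ± 0.46 at day 3. No fed array overlapped the 3 controls, although Wistar day 3 replicate 2 and Wistar control 1 were level at 501. With groups of 2 or 3 arrays such a gap can arise without a difference between groups. How many of all features show it is not given here. These differences leaned on the array labelled Wistar control 2. Without it they were -0.47 at day 14 and -0.22 at day 3. Over the 6 groups the order from high to low was Kyoto day 14, Kyoto day 3, Kyoto day 1, Wistar control, Wistar day 3 and Wistar day 14. Neighbours overlapped except Kyoto day 3 with Kyoto day 1, and Wistar control with Wistar day 3.

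**Figure D1:**
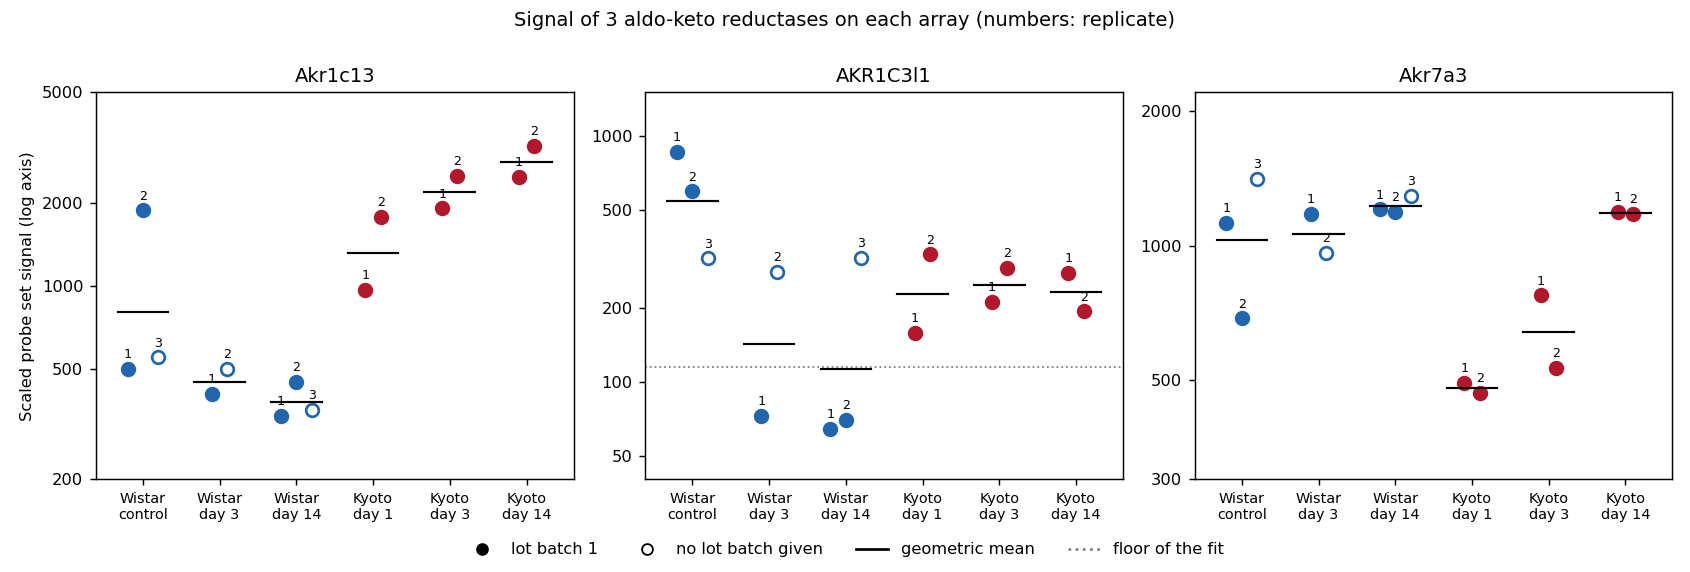
Scaled probe set signal (log axis) of Akr1c13, AKR1C3l1 and Akr7a3 on each of the 14 arrays by group, with Wistar in blue and Kyoto in red. Points are single arrays numbered by replicate, filled for lot batch 1 and open where no lot batch is given, bars are geometric means, and the dotted line is the floor at 115. Akr1c13 splits by strain except on Wistar control 2 (1874), and AKR1C3l1 lies under the floor on 3 fed Wistar arrays. The group means of Akr7a3 are lowest in Kyoto livers at days 1 and 3, with Wistar control 2 (687) below Kyoto day 3 replicate 1 (774).

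AKR1C3l1 was the member with the largest difference from the Wistar controls after feeding, and that difference was uneven between arrays. Its signal was 857, 594 and 317 in the Wistar controls. In fed Wistar livers it was 72.4 and 279 at day 3, and 64.2, 69.6 and 318 at day 14. In Kyoto livers it was 158 and 329 at day 1, 211 and 291 at day 3, and 276 and 193 at day 14. So 3 of 5 fed Wistar arrays were under the floor, the other 2 were close to Wistar control 3, and the Kyoto arrays, at 158 to 329, were all above the floor.

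The 3 arrays without a lot batch were those at 317, 279 and 318. Among lot batch 1 arrays, AKR1C3l1 was 594 to 857 in controls and 64.2 to 72.4 in fed Wistar rats, with no overlap. The difference was at least 6.2-fold (-2.63 log2) at day 14 (2 against 2 arrays) and at day 3 (1 against 2). With so few arrays a lack of overlap can easily arise without a difference between groups. Its share among all features is not given here. Among the arrays with no lot batch given, the difference was 0.00 log2 at day 14 and -0.19 at day 3, with 1 array a group. Lot batch moved with the level of this gene inside each Wistar group, but in opposite directions. Arrays without a lot batch were lower than lot batch 1 arrays in controls and higher in fed rats. Wistar control 3 and Wistar day 14 replicate 3, both without a lot batch, were each other's nearest arrays (r = 0.97 across 1906 features). Both also held blank cells. The part of lot batch and of blank cells in the result was not tested.

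Over all arrays the AKR1C3l1 signal was lower than in controls by at least 3.37-fold at day 14 (-1.75 ± 0.48 log2, 3 against 3 arrays) and by at least 3.04-fold at day 3 (-1.60 ± 0.54, 2 against 3 arrays). As background, 0 of 1909 features (0%) passed in either comparison by limma, with 99 and 200 at an unadjusted p under 0.05. Both comparisons share the same 3 controls. Without the array labelled Wistar control 2 the differences were -1.69 and -1.54, again as bounds. Without Wistar day 3 replicate 1, the 1 array of its group under the floor, the day 3 difference was -0.97. Leaving out the other array of that group gave -2.24, a bound. The hepatocyte marker sum was lower on every fed Wistar array (117360 to 126560) than on every Wistar control (127700 to 136180). Stellate cell markers summed to 8730 to 9604 at day 3 and 4955 to 8313 in controls. The part of either in the AKR1C3l1 and Akr1c13 differences from control was not tested.

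In Kyoto livers AKR1C3l1 showed no difference with day beyond the spread of the arrays. The means at days 1, 3 and 14 were 7.83 ± 0.75, 7.95 ± 0.33 and 7.85 ± 0.36 log2 (SD, n = 2 each), and the arrays of all 3 days overlapped. The day 14 against day 1 difference of 0.02 ± 0.59 log2 was -0.51 without Kyoto day 1 replicate 1. Leaving out replicate 2 of that day gave 0.55. The fed strain difference was at least 0.49 ± 0.40 log2, with overlapping arrays. Among lot batch 1 arrays it was at least 1.06 log2 (2.08-fold, 4 against 3 arrays), where Kyoto arrays had 193 to 291 and Wistar arrays 64.2 to 72.4. Over all arrays it was at least 0.17 without Wistar day 3 replicate 1 and at least 0.81 without Wistar day 3 replicate 2. The order of groups was Wistar control, Kyoto day 3, Kyoto day 14, Kyoto day 1, Wistar day 3 and Wistar day 14, and only the first neighbours did not overlap.

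Akr7a3 was low in Kyoto livers early in feeding and at the Wistar level by day 14. Its signal was 493 and 468 at day 1, 774 and 532 at day 3, and 1188 and 1175 at day 14 in Kyoto rats. Fed Wistar livers had 1175 and 963 at day 3, and 1205, 1190 and 1293 at day 14. The Wistar controls had 1123, 687 and 1407. The Kyoto arrays of days 1 and 3 were all below the 5 fed Wistar arrays, and those of day 14 were not. There were no fed Wistar livers of day 1 to set beside the Kyoto ones, and the share of all features with such a gap is not given here. Over the means of days 3 and 14 the fed strains differed by -0.39 ± 0.21 log2, with overlapping arrays. The array labelled Wistar control 2, at 687, lay within the range of the Kyoto arrays of day 3 and below every other Wistar array.

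From day 1 to day 14 the Akr7a3 signal in Kyoto livers differed by 1.30 ± 0.315 log2 (2.46-fold, 2 against 2 arrays). From day 3 to day 14 it differed by 0.88 ± 0.315 and from day 1 to day 3 by 0.42 ± 0.315, with no overlap between any of these days. With 2 arrays a day such a gap can easily arise without a difference between days. The share of all features that show it is not given here. The first difference ran from 1.26 to 1.34 with single arrays left out. Between days 3 and 14, dropping Kyoto day 3 replicate 2 gave 0.61 and dropping replicate 1 of that group gave 1.15. Only 1 of 1909 features (0.0524%) passed from day 1 to day 14, and none (0%, 88 at an unadjusted p under 0.05 by limma) from day 3 to day 14. Of the marker sums, 3 did not overlap between days 1 and 14 in these rats. With 2 arrays a day these gaps too can easily arise without a difference between days. Stellate cell markers summed to 10326 to 12273 at day 1 and 8502 to 8593 at day 14, hepatocyte markers to 127360 to 132490 and 122620 to 122660, and Cd4 was 126 to 193 and 86.9 to 91.0. The Cd4 values at day 14 lay under the floor. The part of these marker sums in the Akr7a3 difference was not tested.

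The strain difference of Akr7a3 was -0.73 ± 0.315 log2 at day 3 and -0.06 ± 0.29 at day 14. The change from day 3 to day 14 in Kyoto less that in Wistar was 0.67 ± 0.43, or 0.40 without Kyoto day 3 replicate 2. In Wistar rats feeding made little difference to the mean: 0.26 ± 0.26 log2 at day 14 and 0.05 ± 0.29 at day 3 against control. Without the array labelled Wistar control 2 these were -0.03 and -0.24. From high to low the groups ran Wistar day 14, Kyoto day 14, Wistar day 3, Wistar control, Kyoto day 3 and Kyoto day 1. The gap between the first neighbours was 0.06 log2 without overlap, the next 3 pairs of neighbours overlapped, and Kyoto day 3 lay above Kyoto day 1.

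Among the other aldo-keto reductases none of 6 tested genes passed in any of the 8 comparisons by limma. By the probe set with the highest mean, an unadjusted p under 0.05 was reached by 2 of them in fed Kyoto against fed Wistar. In each of the other comparisons it was reached by 0. Their median strain difference was 0.045 log2, beside 0.035 for all features. Akr1d1, the steroid reductase of bile acid synthesis and steroid hormone breakdown, came nearest. Its signal was 1704 and 1765 at day 3 and 2017 and 2152 at day 14 in Kyoto livers, against 3104 and 3438 at day 3 and 3007, 3656 and 3637 at day 14 in Wistar livers. All 4 fed Kyoto arrays were below all 5 fed Wistar arrays (-0.81 ± 0.22 log2, limma adjusted p = 0.0603).

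A second Akr1d1 probe set, of the shared _s_at kind, showed a larger gap of the same sign. It read 273 to 505 in the 4 fed Kyoto livers and 859 to 2936 in the 5 fed Wistar livers, the highest being Wistar day 14 replicate 3, without a lot batch. With every probe set kept as its own feature it was 3.6-fold lower in fed Kyoto rats (-1.85 ± 0.35 log2, limma adjusted p = 0.0161), while the first probe set did not pass (adjusted p = 0.0682). The first probe set passed without either Kyoto day 1 array (adjusted p = 0.0161 without replicate 1 and 0.0164 without replicate 2). Leaving out single arrays gave -0.86 to -0.78 log2 and adjusted p up to 0.205.

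Akr1a1, the general aldehyde reductase, differed by 0.34 ± 0.15 log2 in fed Kyoto against fed Wistar rats without overlap (limma adjusted p = 0.276). Akr1c14, a hydroxysteroid dehydrogenase of rat liver, differed by -0.37 ± 0.27 (limma adjusted p = 0.583), and its second probe set by -0.77 ± 0.23 (adjusted p = 0.0976). Akr1c3, another member of the C subfamily, differed by -0.05 ± 0.245, and Akr1b1, the aldose reductase, by 0.21 ± 0.19. Akr7a2, the succinic semialdehyde reductase beside Akr7a3, differed by 0.14 ± 0.20, but its second probe set had the opposite sign (-0.17 ± 0.22). The second probe set of Akr1c3 differed by -0.23 ± 0.25, with Wistar day 3 replicate 2 under the floor. Kcnab2, a potassium channel subunit of the same fold, was too low to be tested. Against Wistar controls, these 6 genes differed by -0.09 to 0.19 log2 at day 14 by the probe set with the highest mean. Their further probe sets ranged more widely in that comparison, at 0.80 for Akr1d1, 0.35 for Akr7a2, -0.33 for Akr1c14 and -0.42 for Akr1c3. At day 3 against control these further probe sets were at 0.86 for Akr1d1, -0.13 for Akr7a2 and 0.25 for Akr1c14. That of Akr1c3 was at -0.97 ± 0.34, a bound (adjusted p = 0.313 by limma with every probe set kept). It read 114 to 245 on the fed Wistar arrays and 277 to 345 on the Wistar controls.

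**Figure D2:**
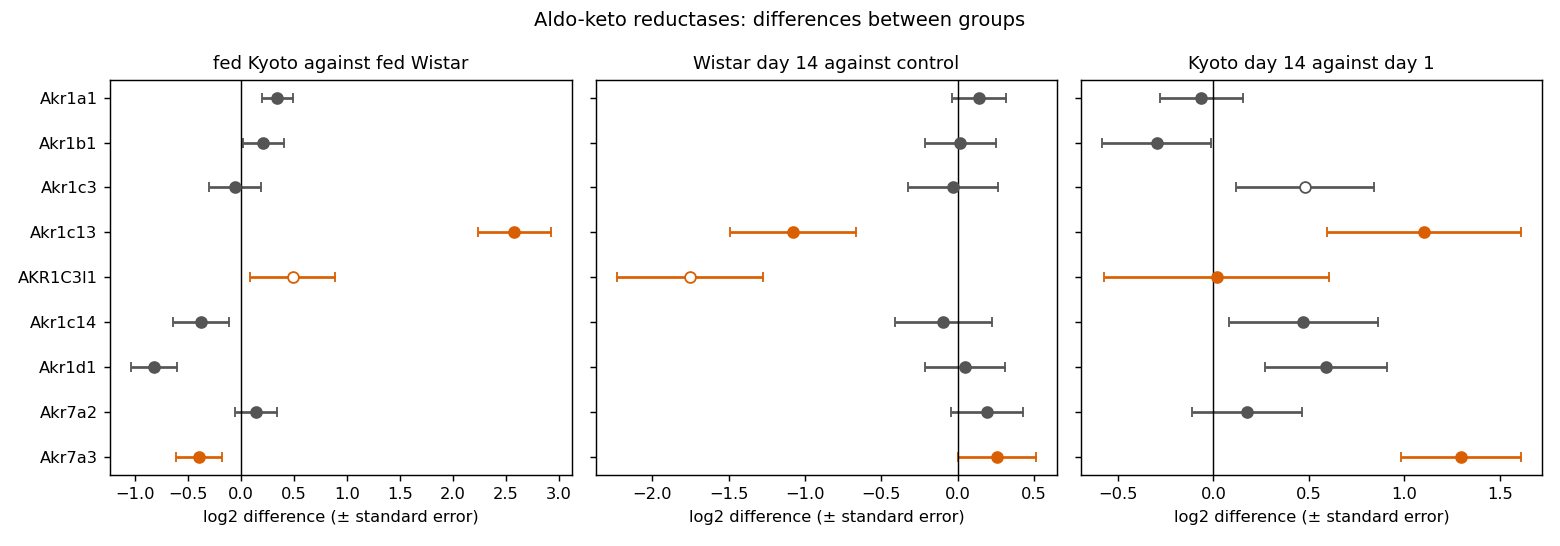
Differences (log2, points, with standard errors as bars) of the 9 tested aldo-keto reductases in 3 comparisons, the 3 members in orange and the 6 others in grey; an open point is a bound because an array of the lower group was at the floor. Akr1c13 lies at 2.58 in the strain comparison, AKR1C3l1 at -1.75 in Wistar day 14 against control and Akr7a3 at 1.30 in Kyoto day 14 against day 1.

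Each list of related genes gave 1 call in fed Kyoto against fed Wistar livers, where 1.26% of all features passed upwards and 1.99% downwards. The lists were not tested against that share. Of 11 carbonyl and alcohol enzymes tested, 1 passed downwards and all 11 means were lower in Kyoto (median -0.23 log2 against 0.04 for all features). That gene was Aldh1a1, the retinaldehyde dehydrogenase, at 429 to 908 in fed Kyoto and 2460 to 3173 in fed Wistar livers (-2.10 ± 0.41 log2, limma adjusted p = 0.0136). Of 15 steroid enzymes, 1 passed downwards (median -0.12). It was Hsd17b6, a hydroxysteroid dehydrogenase, at 882 to 2173 against 4097 to 4994 (-1.54 ± 0.28, limma adjusted p = 0.00987). Of 25 antioxidant response (Nrf2) targets, 1 passed upwards (median -0.01). It was Abcc2, a canalicular export pump, at 1555 to 2167 against 703 to 878 (1.21 ± 0.31, limma adjusted p = 0.0455).

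The array labelled Wistar control 2 lay with the Kyoto arrays for each of these: 473 for Aldh1a1, 1447 for Hsd17b6 and 1837 for Abcc2. The Aldh1a1 call was lost without Kyoto day 3 replicate 2, either Kyoto day 14 array or either Wistar day 3 array (limma adjusted p 0.0521 to 0.066). The Hsd17b6 call was lost without Kyoto day 14 replicate 2 (0.0505) or Wistar day 3 replicate 2 (0.0539). The Abcc2 call was lost without any 1 of the 9 fed day 3 and day 14 arrays (0.066 to 0.162). With a lot batch term the limma adjusted p was 0.0611, 0.0505 and 0.168 in the same order, and with no filter on low features 0.0974, 0.0719 and 0.157. The Abcc2 call was also lost with every probe set as its own feature (0.0542). In the other 7 comparisons no gene of these lists passed, and at most 2 of a list had an unadjusted p under 0.05 by limma.

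Genes whose pattern was most like each member were ranked by Pearson's r over the 14 arrays among 1499 named features, as a description. The arrays share scaling and fall into strains, and the r values carry no p. Nearest to Akr1c13 were Cdh17, a cadherin (r = 0.981, 7 arrays at the floor), Abcc2 (0.931) and Ctss, a lysosomal protease of macrophages (0.908). Most opposite were Ces2e, a carboxylesterase (-0.932, 7 arrays at the floor), and Ephx2, an epoxide hydrolase (-0.925).

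AKR1C3l1 was itself at the floor on 3 arrays. It was followed most closely by Rabggtb, a prenyltransferase subunit (r = 0.894), Hsd17b13, a lipid droplet enzyme (0.804), and Gne, of sialic acid synthesis (0.743). Gnas (-0.788) and Med25 (-0.715, 2 arrays at the floor) were most opposite to AKR1C3l1. For Akr7a3 the nearest were Hsd17b6 (0.884), Gsta3, a glutathione transferase (0.882, 1 array at the floor), and Cyp2d3, a cytochrome P450 (0.875). Its most opposite were Txnip (-0.86) and Zfp697 (-0.833, 4 arrays at the floor). None of the other aldo-keto reductases was among these. Between members r was 0.21 for Akr1c13 with AKR1C3l1, -0.51 for Akr1c13 with Akr7a3 and -0.14 for AKR1C3l1 with Akr7a3, over the 14 arrays, given as a description.

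**Figure D3:**
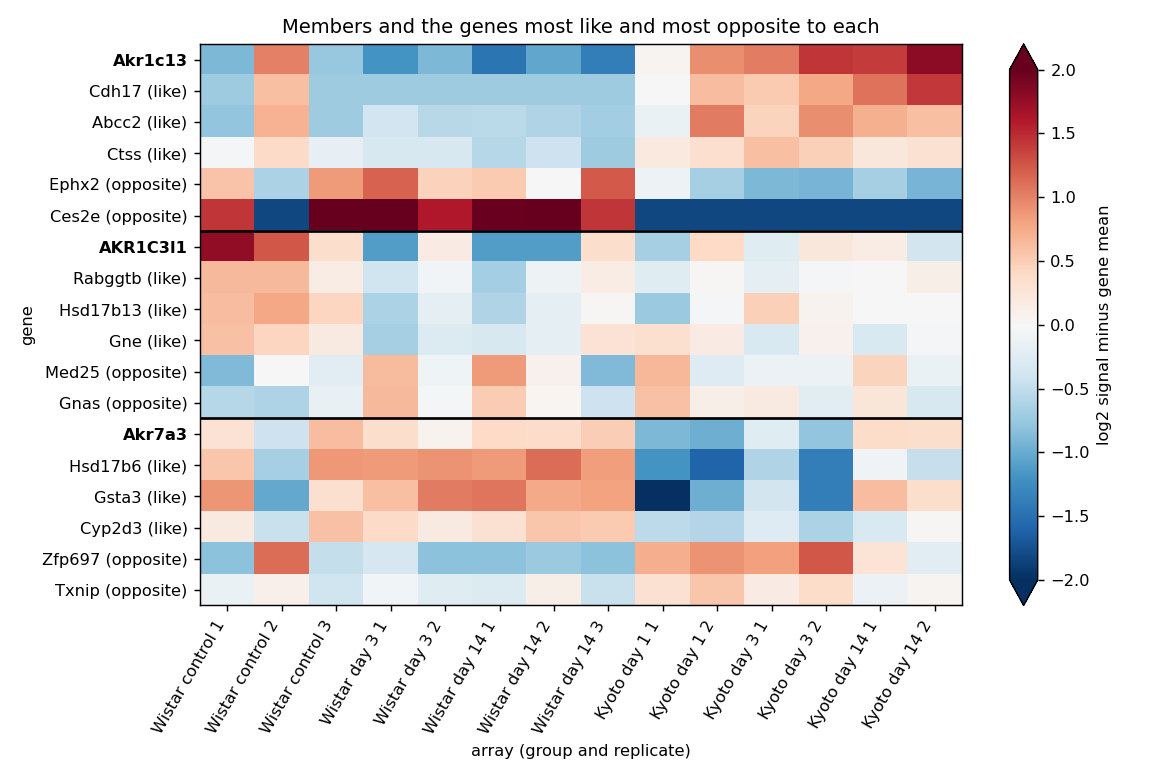
Log2 signal minus each gene's mean (colour scale cut at -2 and 2) on the 14 arrays for the 3 members (bold) and, under each, the 3 genes with the most similar and the 2 with the most opposite pattern. Wistar control 2 has the sign of most Kyoto arrays in the Akr1c13 block, and in the row of AKR1C3l1 itself Wistar controls 1 and 2 are highest.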

How the data were processed

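The deposited table holds intensity: 1 MAS5 signal for each probe set and array, linear, 0.64 to 47932 (the method is named in the submitters' processing notes). Its version, target and filters are not stated in the sources used here. The median was 233.2 on 11 arrays. On the other 3, cells were blank, and the 375 of 4502 rows blank anywhere were left out.

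Log2 signals were quantile normalized between arrays (limma 3.58.1, R 4.3.3). Values under the 25th percentile (115) were set to it, 24 control probe sets were dropped, and the probe set with the highest mean stood for a gene. Of 3181 features the upper 60% by mean, 1909, were fitted to 6 group means (limma lmFit, eBayes with trend, 8 residual degrees of freedom), with Benjamini-Hochberg adjustment over all of them in each of 8 comparisons. The fit was tested on simulated data. Values after ± are standard errors unless called SD.

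Groups came from the source labels. The members and lists were chosen with earlier results of these data known. Named were all 3 members, every other aldo-keto reductase, up to 4 list genes past the threshold by smallest p, and the 3 most like and 2 most opposite features of each member. Gene IDs of 3688 probe sets matched RefSeq, which changed 0 symbols. Alternatives were another scaling, floor, filter and probe set rule, terms for lot batch and for blank rows, fits on the compared groups, array weights and single arrays left out.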

Additional observations from a re-analysis of the deposited data

Results flagged for a closer look

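For Akr1a1 every Kyoto array was lower at day 14 than at day 3 and every Wistar array was higher, so the strains moved in opposite directions. The mean changes differed by -0.36 log2. In the limma fit over all features the interaction term of Akr1a1 had an adjusted p of 0.923, so the difference did not pass.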

How the results depend on the processing

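The 3 members' differences in the 8 comparisons were recomputed in 528 alternatives and moved by less than the spread between arrays in 522. The sign changed in 22, of which 0 were for Akr1c13, and the main differences behind them were at most 0.257 log2 in size. With a blank row term Akr7a3 in Kyoto day 14 against day 1 was 1.45, beside 1.30 ± 0.315 in the main fit. Larger shifts came with single arrays left out. AKR1C3l1 in Wistar day 14 against day 3 then ran from -0.79 to 0.49 (main -0.15). Arrays at the floor entered each of these AKR1C3l1 values, so they are not plain estimates. Akr1c13 in Wistar day 14 against control ran from -1.42 to -0.47 (main -1.08). For fed Kyoto against fed Wistar the count of features past the threshold was 62; it was 1 with no filter on low features, 20 with a lot batch term, 103 with only the groups compared, 135 with array weights and 12 to 91 with single arrays left out (12 without Kyoto day 14 replicate 1). For Kyoto day 14 against day 1 the count was 1; it was 3 with no filter, 4 with every probe set kept, 0 with only the groups compared and with array weights, and 0 to 160 with single arrays left out, 160 being without Kyoto day 1 replicate 2. For Kyoto day 3 against day 1 it was 0; it was 2 with no filter and 0 to 74 with single arrays left out, and for Kyoto day 14 against day 3 it was 0; it was 1 with no filter, 1 with array weights and 0 to 1. For Wistar day 3 against control it was 0; it was 1 with every probe set kept, 5 with only the groups compared, 18 with array weights and 0 to 6, and for Wistar day 14 against control 0; it was 1 with array weights and 0 to 7. Of the other aldo-keto reductases 1, Akr1d1, passed between the fed strains with every probe set kept, with only the groups compared and with array weights (0 to 1 with single arrays left out). Without Kyoto day 1 replicate 2, where the lone array is assumed to vary like the other groups, Akr1c14 passed from day 1 to day 3 (0 to 1) and Akr1c14 and Akr1d1 from day 1 to day 14 (0 to 2). The cause of these shifts was not tested. No paired analysis was possible because the labels carry no replicate numbers shared between groups.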
